A study of Mus musculus with 25 samples.

Results

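The Dlk1-Meg3 domain on mouse chromosome 12 and the H19-Igf2 domain on chromosome 7 were followed through 9 deposited lists of chromatin contacts between 10 kb bins. Members were all listed bin pairs with at least 1 anchor in the 32 bins of chromosome 12 from 109.44 to 109.76 Mb, which run from Dlk1 through Meg3, Rtl1 and Rian to Mirg, or in the 11 bins of chromosome 7 from 142.57 to 142.68 Mb, which hold H19, Igf2 and Ins2. There were 326 such entries among the 912901 of the 9 lists, 223 at Dlk1-Meg3 and 103 at H19-Igf2, and they stood for 237 distinct bin pairs. Coordinates are those of mm10.

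The lists came from HiChIP, in which contacts are enriched for those that carry the protein an antibody recognises, and from Hi-C, which captures contacts without an antibody. H3K27ac, an acetylated histone found at active enhancers and promoters, was the HiChIP target in mouse embryonic fibroblasts (MEFs, 2 libraries), in V6.5 embryonic stem (ES) cells (2 libraries) and in V6.5 cells labelled TKO, without doxycycline (0 h, 3 libraries) or with doxycycline for 24 h (3 libraries). KLF4, a zinc finger transcription factor of pluripotent cells, was the target on day 3 (3 libraries) and day 6 (4 libraries) of reprogramming and in ES cells (4 libraries), and Hi-C had 2 libraries each of MEFs and ES cells. The MEFs came from E13.5 embryos, were heterozygous for an Oct4-GFP reporter, an OKSM cassette and rtTA3, and were collected at passage 3 for H3K27ac and Hi-C. The series design instead gives Rosa26-M2rtTA and Col1a1-OKSM, so the sources differ on the rtTA variant. Reprogramming cells were such MEFs in doxycycline and ascorbic acid, taken in bulk on day 3 and sorted for SSEA1 on day 6, so the day 6 group is a selected fraction. All ES and TKO cells were cultured in 2i, and the labels do not spell out TKO or say how many clones it represents. No label says that replicate libraries came from separate cultures or animals, so the p-values measure the spread between libraries, which may be technical.

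Both domains are imprinted: each gene is expressed mainly from the chromosome inherited from 1 parent. At Dlk1-Meg3 the paternal copy expresses the protein-coding genes Dlk1, a transmembrane relative of the Notch ligands, and Rtl1, derived from a retrotransposon, while the maternal copy expresses the noncoding RNAs Meg3, Rian (host of snoRNAs) and Mirg (host of miRNAs), under an imprinting control region that lies between Dlk1 and Meg3. At H19-Igf2 the maternal copy expresses the noncoding RNA H19 and the paternal copy the growth factor gene Igf2, and the insulator protein CTCF binds the unmethylated maternal control region upstream of H19. Silencing of the Meg3 side is a known fault of some mouse induced pluripotent lines, and ascorbic acid is known to make it less frequent. The deposited counts do not separate the parental copies, so each value below is a sum over both.

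The RefSeq start windows (GRCm38.p6, 250 bases before to 50 after a transcript start) of 3 bins that recurred as HiChIP anchors, and of the genes Meg3 and Igf2, are printed first to show what lies there. The first 3 lie in consecutive bins between Dlk1 and Meg3, the next pair, in a bin with 1 HiChIP pair in the ES H3K27ac list, are the first and an internal start of Meg3, and the last is 1 of the Igf2 starts, in a bin with 0 HiChIP pairs, of which only the upstream 250 bases are given. Capitals mark matches to GGGNGTGG or its reverse complement CCACNCCC, the core that KLF proteins recognise, with overlapping matches merged.
Gm34017, chr12:109509312-109509611, plus strand: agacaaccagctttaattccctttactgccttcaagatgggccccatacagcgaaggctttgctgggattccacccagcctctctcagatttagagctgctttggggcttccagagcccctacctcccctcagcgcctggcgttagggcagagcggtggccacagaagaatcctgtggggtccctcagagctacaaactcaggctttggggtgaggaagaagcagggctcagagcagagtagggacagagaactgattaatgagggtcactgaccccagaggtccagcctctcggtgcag
Gm34081, chr12:109517172-109517471, minus strand: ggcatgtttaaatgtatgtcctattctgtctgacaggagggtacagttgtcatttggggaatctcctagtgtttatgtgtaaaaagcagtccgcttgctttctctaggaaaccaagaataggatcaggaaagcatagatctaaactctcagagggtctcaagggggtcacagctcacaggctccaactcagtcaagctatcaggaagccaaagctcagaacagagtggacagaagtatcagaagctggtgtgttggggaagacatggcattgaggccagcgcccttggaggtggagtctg
Gm34081, chr12:109526220-109526519, minus strand: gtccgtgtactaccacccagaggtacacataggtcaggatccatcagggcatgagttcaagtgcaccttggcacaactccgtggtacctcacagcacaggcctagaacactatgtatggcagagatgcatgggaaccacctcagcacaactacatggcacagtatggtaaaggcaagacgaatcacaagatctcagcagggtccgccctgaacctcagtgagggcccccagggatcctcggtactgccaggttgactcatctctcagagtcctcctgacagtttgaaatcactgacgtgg
Meg3, chr12:109540746-109541045, plus strand: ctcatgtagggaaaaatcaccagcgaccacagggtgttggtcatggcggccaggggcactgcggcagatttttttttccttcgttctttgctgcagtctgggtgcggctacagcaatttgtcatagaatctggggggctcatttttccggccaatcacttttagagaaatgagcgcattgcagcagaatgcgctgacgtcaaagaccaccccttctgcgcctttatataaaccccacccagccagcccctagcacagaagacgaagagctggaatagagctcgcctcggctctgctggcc
Meg3, chr12:109545148-109545447, plus strand: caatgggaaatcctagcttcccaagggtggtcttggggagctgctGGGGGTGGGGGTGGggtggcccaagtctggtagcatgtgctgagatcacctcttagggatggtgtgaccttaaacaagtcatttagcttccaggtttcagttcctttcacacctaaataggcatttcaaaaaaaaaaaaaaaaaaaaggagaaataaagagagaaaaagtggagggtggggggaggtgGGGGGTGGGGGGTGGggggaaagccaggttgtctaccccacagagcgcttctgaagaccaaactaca
Igf2, chr7:142657497-142657746, minus strand: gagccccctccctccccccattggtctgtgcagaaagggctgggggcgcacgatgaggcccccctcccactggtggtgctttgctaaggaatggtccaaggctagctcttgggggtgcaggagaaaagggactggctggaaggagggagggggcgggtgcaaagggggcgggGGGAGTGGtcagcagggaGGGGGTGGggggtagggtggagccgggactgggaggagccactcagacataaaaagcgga
The internal Meg3 window held 4 matches and the Igf2 window 2. The next bin, 109530001, anchored 3 pairs in the ES and in each TKO H3K27ac list, and its windows are not printed. These are Gm34081 windows that begin at 109539715 and 109536683, with 2 and 0 matches. Of the 21 start windows at hand for the loci, which include none for H19, Rtl1 or Ins2, 5 held a match, against 17.6% of all 32851 windows. The KLF4 lists anchored pairs in 8 bins of the loci, with 6 start windows of Gm34017, Gm34081 and Gm33148 in them, and 0 of the 6 held these letters, which says nothing of the rest of those bins. The Gm33148 windows among them begin at 142591409, 142591421 and 142591430, so they are largely the same bases.

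Both domains also carry miRNA genes, 57 hairpins at Dlk1-Meg3 and 2 at H19-Igf2 in RefSeq. The mature arms below are those of the hairpins in the pair of Meg3 bins that was listed in TKO cells at 24 h (Mir770 and Mir673), 2 sets of arms in the chromosome 12 cluster that share a seed, and the arms inside H19 (Mir675) and Igf2 (Mir483). Capitals mark the seed, bases 2 to 8.
mmu-miR-770-5p: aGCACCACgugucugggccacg
mmu-miR-770-3p: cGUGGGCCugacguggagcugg
mmu-miR-673-5p: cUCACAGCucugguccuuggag
mmu-miR-673-3p: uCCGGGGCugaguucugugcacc
mmu-miR-410-5p: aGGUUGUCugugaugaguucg
mmu-miR-494-5p: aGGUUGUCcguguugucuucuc
mmu-miR-379-5p: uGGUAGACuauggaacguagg
mmu-miR-1193-5p: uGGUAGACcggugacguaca
mmu-miR-675-5p: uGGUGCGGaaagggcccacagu
mmu-miR-675-3p: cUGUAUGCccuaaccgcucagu
mmu-miR-483-5p: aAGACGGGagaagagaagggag
mmu-miR-483-3p: uCACUCCUccccucccgucuu
Over the 116 mature arms of both loci, 9 seeds were shared by 2 differently named arms each.

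HiChIP libraries held 48.7 to 181 M contacts, of which 2.14 to 8.11 M were on chromosome 12 and 2.61 to 9.54 M on chromosome 7. HiChIP strength is given as CPM, the count scaled to 1 M contacts of the same chromosome in that library. HiChIP lists kept pairs with a p-value of the authors under 0.1 and, in their first libraries, more than 3 CPM, which on chromosome 12 stood for 6.42 to 24.3 counts, and the lists hold nothing about pairs below those limits. Hi-C lists kept pairs with p under 0.01 and a signal of at least 15. Libraries with no difference beyond sampling noise at a chi-square p of 0.05 were counted as 1 sample where others of the group differed. These were ES KLF4 replicates 1 and 2, and 3 and 4, and TKO 24 h replicates 1 and 3. TKO 0 h replicates 2 and 3, at a chi-square p of 0.049, were kept apart. No pair of day 6 libraries differed beyond that noise, and they were kept as 4. The labels were checked on listed H3K27ac pairs at marker genes: 8 ES markers had 8 pairs in MEFs, 253 in ES cells, 240 in TKO cells at 0 h and 205 at 24 h, and 8 fibroblast markers had 80, 4, 12 and 7. The fibroblast marker Twist1 was at 0 in all 4 lists. Among 5 markers of other lineages, whose pairs summed to between 4 and 10 a list, Sox17, Ptprc and Myod1 were at 0 in those 4 lists. In the same order of lists, Gata4 had 4, 7, 4 and 3 pairs and Gata6 had 1, 3, 4 and 1. Each group has 1 list, so the presence of a pair in a list has no replicate check.

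At Dlk1-Meg3 the H3K27ac contacts of ES cells gathered between Dlk1 and Meg3 and were absent from the fibroblast list. The MEF list held 3 pairs and the ES list 8, and 0 were shared, also when each anchor was allowed to lie 1 bin away. Over all pairs, 29.4% of the MEF list recurred in the ES list and 23.7% of the ES list in the MEF list, so 3 and 8 pairs are few for a comparison. No member could therefore be tested for a change in strength between MEF and ES H3K27ac libraries. Per bin the locus had 0.188 H3K27ac anchors in MEFs and 0.469 in ES cells, beside 0.511 and 0.581 over chromosome 12. In TKO cells it had 0.5 at 0 h and 0.75 at 24 h, beside 0.701 and 0.651.

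Of the 3 MEF pairs, 1 had an anchor between Dlk1 and Meg3 and the others lay in Rian. The pair from the bin before Dlk1 to 109480001, 40 kb further on, had 3.26 and 3.40 CPM in the 2 libraries. Inside Rian, the pair 109620001 to 109630001 had 6.81 and 5.95 CPM, and 109620001 to 109640001 had 3.85 and 5.10. None of the 3 touched the bins of Dlk1 or Meg3 themselves.

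In ES cells, 7 of the 8 H3K27ac pairs joined bins between 109480001 and 109550000, a stretch that spans the noncoding RNA genes Gm34081 and Gm34017 and ends in the first bin of Meg3. The strongest was 109520001 to 109530001, with 11.4 and 9.77 CPM (10.6 ± 1.14, SD, n = 2). Next came 109510001 to 109520001 with 9.17 and 8.12 CPM, and 109500001 to 109520001 with 6.11 and 6.74. The median over the 8 pairs was 5.46 CPM, beside 5.53 for all listed pairs of chromosome 12, so the members were of usual strength for that list.

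Meg3 was reached by 1 ES pair, 109520001 to 109540001, with 4.45 and 6.33 CPM. Its second anchor holds the start of Meg3 and also a start of Gm34081, and the first holds another start of Gm34081. At this bin size the pair cannot be assigned to either gene of the second anchor. Dlk1 was touched by 0 H3K27ac pairs in MEF, ES or TKO cells. The longest member of any HiChIP list was the eighth ES pair, 109740001 to 109940001, which joined a Mirg bin with 7 miRNA genes to the gene Gm34554 over 200 kb, at 3.61 and 3.30 CPM.

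**Figure D1:**
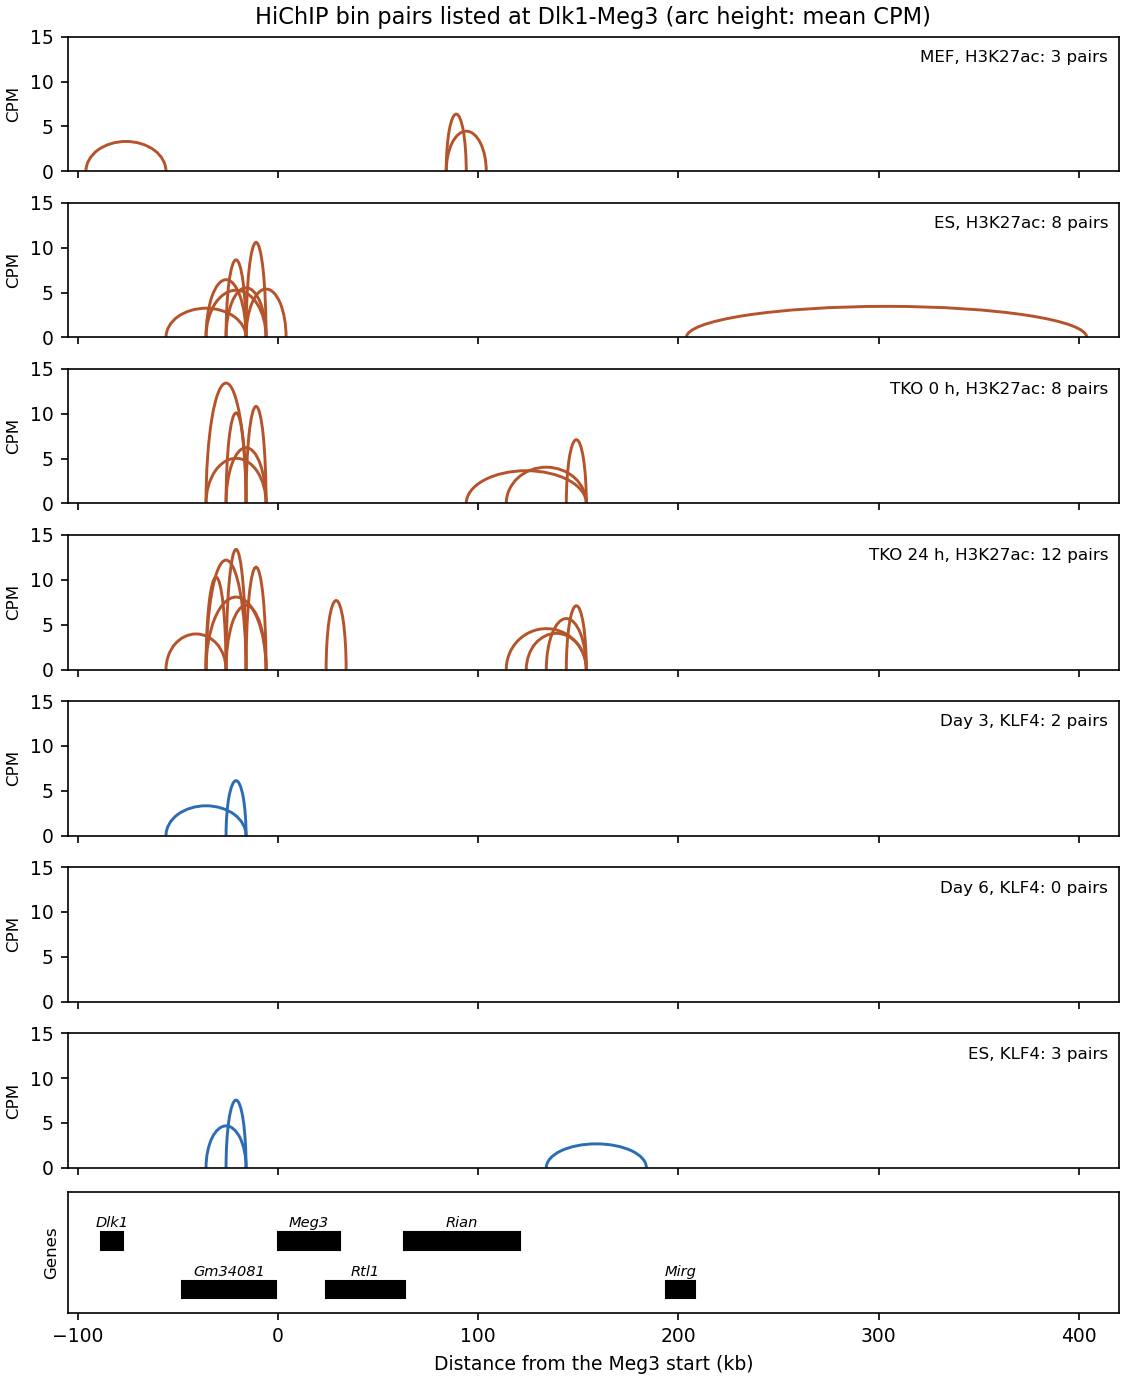
Listed HiChIP bin pairs at Dlk1-Meg3 in 7 lists, drawn as arcs between bin centres against the distance from the Meg3 start in kb, with arc height giving the mean CPM and genes as black bars below. The stretch just before Meg3 holds arcs in the ES, TKO, day 3 and ES KLF4 panels, the MEF panel has 2 arcs in Rian and 1 that reaches from before Dlk1 to the start of that stretch, and the day 6 panel is empty.

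TKO cells, which are also V6.5 cells, listed the same core. At 0 h there were 8 pairs and at 24 h 12, and 5 pairs of the untreated TKO list were also in the ES list, 62.5% of either, where over all pairs 77.6% of the ES list and 62.8% of the TKO 0 h list were shared. The 5 pairs joined the 4 bins from 109500001 to 109540000. In the following, bin 1 is 109500001-109510000 (a start of Gm34017), bin 2 is 109510001-109520000 and bin 3 is 109520001-109530000 (each with a start of Gm34081). Bin 4 is 109530001-109540000, which also holds starts of Gm34081 and is the last before the Meg3 start bin.

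A second group of TKO pairs converged on the bin 109690001-109700000, beyond Rian, where RefSeq places no gene. At 0 h it contacted 3 bins, 109630001 (3.30, 3.71 and 3.94 CPM), 109650001 (4.74, 3.45 and 3.94) and the neighbour 109680001 (7.63, 6.10 and 7.60). At 24 h it contacted 4 bins, 109650001, 109660001, 109670001 and 109680001. The ES list held 0 pairs of this bin.

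The TKO lists, unlike the others, carry the authors' annotation of H3K27ac ChIP peaks per anchor. In the authors' deposited table, bins 3 and 4 and the bin 109690001 had a peak at both 0 h and 24 h, and bin 2 and the last Meg3 bin, 109570001, had one at 24 h alone. Bin 1, which anchored 3 pairs at 24 h, had no peak at either time.

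Between 0 h and 24 h, 7 pairs were in both TKO lists, which is 87.5% of the 0 h members and 58.3% of the 24 h members, beside 72.6% and 80.4% of all pairs. The 24 h list thus had 5 pairs that the 0 h list lacked, among them bin 1 with bin 2 at 9.59, 10.4 and 10.6 CPM and, inside Meg3, 109560001 with 109570001 at 6.95, 9.33 and 5.29 CPM. The latter bins hold Mir770 and Mir673, whose arms are printed above. The remaining 3 had between 3.62 and 6.22 CPM in the 3 libraries. The 1 pair listed at 0 h alone was 109630001 to 109690001.

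Of the 7 pairs in both lists, 1 was called higher at 24 h, against 2.8% of the 67723 pairs tested that were called in either direction and 0.601% that were called higher. It joined bins 1 and 4, 30 kb apart. Its CPM was 5.57, 5.30 and 4.22 at 0 h and 9.26, 8.44 and 6.4 at 24 h, so the lowest 24 h library lay above the highest 0 h library. The means were 5.03 ± 0.711 (SD, n = 3) and 8.08 ± 0.517 (SD, n = 2). The 24 h SD is small because replicates 1 and 3, joined as 1 sample, were the highest and lowest libraries (9.26 and 6.4 CPM). The log2 change in edgeR's quasi-likelihood test was 0.76 ± 0.23 (SE), with a Benjamini-Hochberg adjusted p of 0.0452. The call was not kept with library contact totals in place of TMM factors (log2 change 0.66, edgeR adjusted p = 0.0837) or chromosome constants (0.65, 0.0882). It was not kept either without replicate 1, 2 or 3 of 0 h (edgeR adjusted p 0.066, 0.106 and 0.191) or without replicate 1 or 2 of 24 h (0.2 and 0.182), and the pair had 15 to 38 counts a library.

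The other 6 pairs did not pass. The pair of bins 2 and 3 had 9.48, 9.81 and 11.0 CPM at 0 h and 12.9, 14.2 and 12.3 at 24 h, again without overlap, with a log2 change of 0.51 ± 0.18 (SE) and an edgeR adjusted p of 0.0996. The pair of bins 1 and 3, the strongest at 0 h, had 13, 14.3 and 13 CPM and then 12.6, 12 and 12.3. Its libraries did not overlap either, with those of 24 h the lower. The log2 change of this pair was -0.02, with an edgeR adjusted p of 0.979 (-0.12 and 0.811 with contact totals). Bins 3 and 4 gave 10.3, 10.6 and 11.5 CPM at 0 h and 9.59, 11.3 and 13.1 at 24 h, which overlap. The 7 log2 changes had a median of 0.21 beside 0.01 over all tested pairs, and 6 of the 7 were above 0 (5 of 7 with contact totals). Of all called pairs, 407 were higher and 1487 lower at 24 h (183 and 3019 with contact totals).

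**Figure D2:**
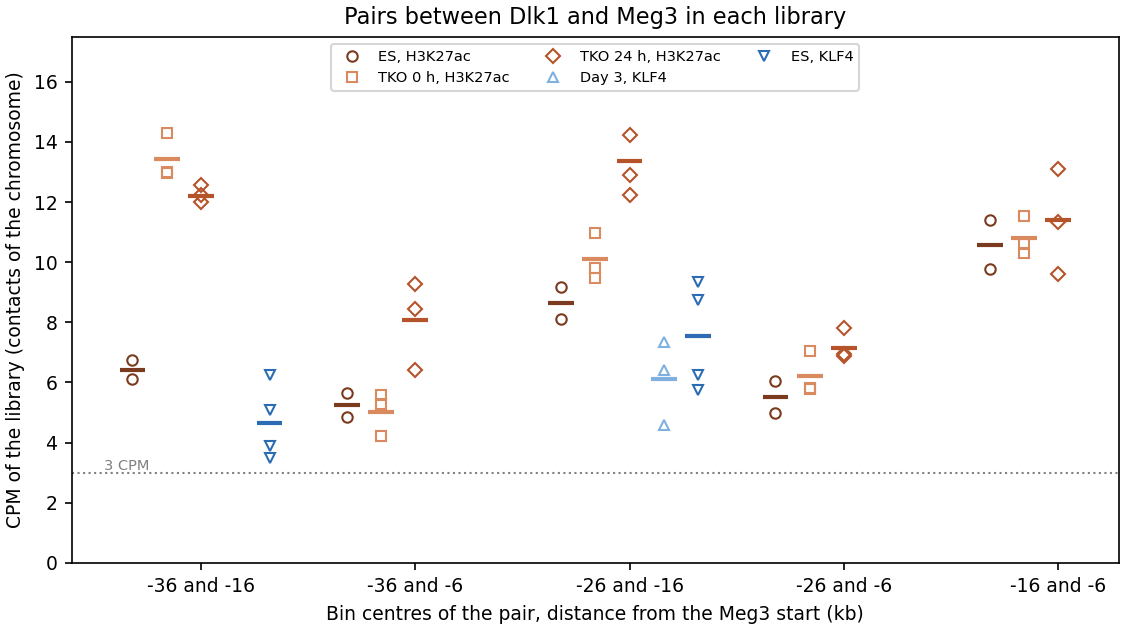
CPM of each library for the 5 pairs among the 4 bins before Meg3 that the ES and TKO 0 h H3K27ac lists share, named by the distance of the bin centres from the Meg3 start in kb, where open symbols are libraries and bars are group means with joined libraries counted once. The second set of points from the left is the pair called between 0 h (4.22 to 5.57 CPM) and 24 h (6.4 to 9.26 CPM), and an absent symbol means that the list of that group does not hold the pair.

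KLF4 contacts were few, and 4 of the 5 entries of the day 3 and ES lists had an anchor in bin 3. The pair of bins 2 and 3 was in both lists and is counted in each. The day 3 list held 2 pairs at Dlk1-Meg3 of 1264 on chromosome 12, the day 6 list 0 of 180, and the ES list 3 of 1354. Their shares of the chromosome's list, 0.158% on day 3 and 0.222% in ES cells, stood beside 0.236% for ES H3K27ac and 0.101% for MEF H3K27ac.

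On day 3, bins 2 and 3 were joined at 7.35, 4.60 and 6.41 CPM, and 109480001 was joined to bin 3 at 3.27, 4.11 and 2.59 CPM. Both pairs were in the ES H3K27ac list and neither was in the MEF H3K27ac list, where over all pairs 46.1% of the day 3 list recurred in ES H3K27ac and 46.0% in MEF H3K27ac. In ES cells KLF4 joined bins 2 and 3 at 9.34, 8.74, 6.24 and 5.75 CPM (7.54 ± 2.23, SD, n = 2) and bins 1 and 3 at 3.89, 3.50, 6.24 and 5.09 CPM. Another ES pair, 109670001 to 109720001, linked a bin with a snoRNA gene to one with 10 miRNA genes at 3.11, 3.93, 2.38 and 1.55 CPM.

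The pair of bins 2 and 3 was the 1 member listed for KLF4 on day 3 and in ES cells. Libraries 1 and 2 of ES cells were above the day 3 range and libraries 3 and 4 within it. The log2 change was 0.26 ± 0.23 (SE), with an edgeR adjusted p of 0.574, where 7.2% of the 7387 pairs tested were called. It was 0.02 without the second day 3 library, 0.47 without the third and 0.13 without the first ES library. So 0 of the 1 tested was called by edgeR, with an unadjusted edgeR p of 0.254, and its unadjusted p in DESeq2 was 0.449. For the 2 contrasts with day 6 no member was in both lists. Of the 3 ES KLF4 members, 2 were also in the ES H3K27ac list, beside 74.0% of all ES KLF4 pairs.

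Hi-C, which needs no mark, listed many more members at Dlk1-Meg3, most of them in ES cells. There were 41 pairs in MEFs and 146 in ES cells, 3.56 times as many, while all of chromosome 12 had 10351 and 16308 pairs, 1.58 times as many. With both chromosome lists cut to the 10351 strongest pairs, MEFs kept 41 members and ES cells 93, 2.27 times as many. Each bin of the locus was an anchor 2.5 times on average in MEFs and 8.53 times in ES cells, beside 1.77 and 2.79 times over the chromosome. Since each cell type has 1 list, these ratios carry no test.

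The gap was widest in Meg3, Rtl1 and Rian, and went on into the bins beyond Rian. Pairs touching the 13 bins from Meg3 to the end of Rian numbered 2 in MEFs and 75 in ES cells, and 74 of the 75 were absent from the MEF list. Over all pairs, 40.0% of the ES list was in the MEF list. The 2 MEF pairs were 109560001 to 109580001, with a signal of 35.0 and 44.9, and 109660001 to 109670001, with 58.8 and 49.0. The 75 ES pairs had mean signals of 15.3 to 57.3 with a median of 25.6, and reached up to 150 kb. The ES list of equal length kept signals from 23.7 up, and the 75 were not recounted at that length. By segment, ES pairs touching the Meg3 bins numbered 25 against 1 in MEFs, and those touching the Rtl1 and Rian bins 61 against 2.

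Around Dlk1 the lists were closer. Pairs within the stretch between Dlk1 and Meg3 numbered 15 in each cell type, and pairs touching the 2 bins of Dlk1 12 in MEFs and 23 in ES cells. Beyond Rian the lists differed more: the bins of the miRNA cluster and Mirg had 10 pairs in MEFs and 46 in ES cells. Of these, 9 and 20 lay wholly within those bins. In MEFs 30 pairs lay wholly before the Meg3 start bin, 11 wholly from it on, and 0 crossed, whereas in ES cells these numbers were 49, 81 and 16.

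The bin with the Meg3 start had few Hi-C pairs, 0 in MEFs and 2 in ES cells, where the median bin of the locus had 1.5 and 9.5 and bins without a pair numbered 12 of 32 and 1 of 32. The 2 ES pairs joined it to Dlk1 (109450001, signal 19.3 and 17.4, 90 kb away) and to 109480001 (16.7 and 22.8). Dlk1 thus had a listed Hi-C contact with the Meg3 start bin in ES cells, just above the limit of 15 for listing.

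The strongest Hi-C member was the pair of bins 1 and 2 in both cell types, at 60.2 and 66.7 in MEFs and 69.3 and 67.3 in ES cells. In ES cells it was followed by 109450001 to 109460001, within Dlk1, at 57.8 and 73.8, and by 109700001 to 109710001, at the start of the miRNA cluster, at 59.1 and 68.4. In MEFs it was followed by 2 pairs of neighbouring bins in the miRNA cluster, 109710001 to 109720001 (65.8 and 59.9) and 109720001 to 109730001 (58.8 and 66.7). The longest members spanned 90 kb in MEFs, from the bin before Dlk1 to 109530001 (16.8 and 20.4), and 150 kb in ES cells, from the same bin to 109590001 (18.0 and 16.3). The authors' FDR was under 0.1 for 0 of the 41 MEF members and 3 of the 146 ES members, beside 10.6% and 7.27% of all listed Hi-C pairs of chromosome 12.

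**Figure D3:**
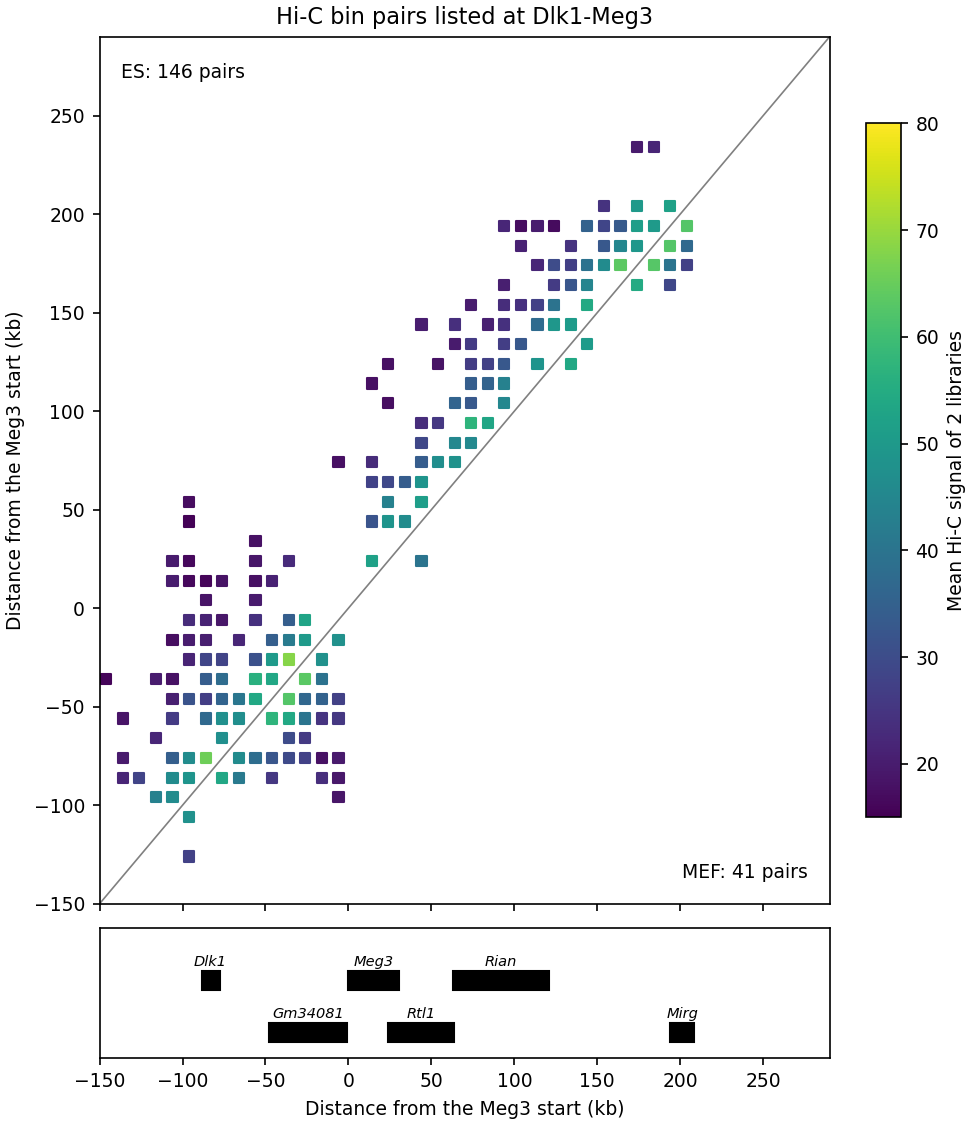
Listed Hi-C bin pairs at Dlk1-Meg3, ES cells above the diagonal and MEFs below, both axes in kb from the Meg3 start, colour giving the mean signal of 2 libraries and black bars the genes. ES squares line most of the diagonal (23 of 33 neighbouring-bin pairs), and below it the stretch over Meg3, Rtl1 and Rian is nearly empty, with 2 MEF pairs against 75 in ES cells.

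The 2 lists shared 31 members, 75.6% of the MEF members and 21.2% of the ES members, beside 55.9% and 40.0% of all pairs. The shared ones were the stronger in ES cells, with a median signal of 47.4 against 26.5 for the 115 listed in ES cells alone, and shorter, with medians of 20 and 50 kb. Among the 31, edgeR called 0 at an adjusted p under 0.05, and 3 had an unadjusted p under 0.05. DESeq2 called 0, with 0 at an unadjusted p under 0.05. The background was 0.0322% of 124204 tested pairs called, 26 higher and 14 lower in ES cells (49 and 12 with the chromosome constants as offsets), so the strength test could call little anywhere. The median log2 change was -0.09 beside 0.00 over all pairs, and 20 of the 31 were below 0 (11 of 31 with the chromosome constants). The smallest p belonged to 109710001 to 109740001, between miRNA bins, with 27.6 ± 2.50 in MEFs and 50 ± 0.115 in ES cells (SD, n = 2 each), a log2 change of 0.70 ± 0.28 (SE) and an edgeR adjusted p of 0.661.

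The deposited topological domains, regions within which contacts are more frequent, differed at the Mirg end. In ES cells the locus lay in a domain of 360 kb that ended with the locus, from 109400001 to the last base of the locus. In MEFs the domain began at the same base and ran on to 110400000, 1000 kb in all. The ES boundary after Mirg was crossed by the 200 kb H3K27ac pair and by 2 Hi-C pairs of ES cells, and by 0 member pairs of the MEF lists.

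H3K27ac and Hi-C overlapped in part. Of the 8 ES H3K27ac members, 4 were in the ES Hi-C list, beside 51.2% of all ES H3K27ac pairs, and 7 lay within 1 bin of a Hi-C pair at both anchors. Of the 3 MEF H3K27ac members, 0 were in the MEF Hi-C list, beside 47.1% of all MEF H3K27ac pairs. Of the 8 TKO 0 h members, 7 were in the ES Hi-C list, beside 47.8% of all TKO 0 h pairs, though TKO cells had no Hi-C of their own.

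At H19-Igf2 the HiChIP lists were almost empty. The H3K27ac lists of MEFs, ES cells and TKO cells at 0 h and 24 h held 0 pairs with an anchor in the 11 bins, and so did the KLF4 lists of day 3 and ES cells. The listing limit of 3 CPM stood for 7.84 to 28.6 counts on chromosome 7, so weaker contacts were not detectable in these lists. Per bin, these lists had 0.547 (MEF), 0.692 (ES), 0.895 (TKO 0 h) and 0.815 (TKO 24 h) H3K27ac anchors over chromosome 7. KLF4 anchors were fewer, 0.249 a bin on day 3 and 0.264 in ES cells.

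The 1 exception was the day 6 KLF4 list. There the neighbouring bins 142590001 and 142600001, which lie between H19 and Igf2 in the noncoding RNA gene Gm33148, were joined at 4.98, 4.33, 3.83 and 3.79 CPM (4.23 ± 0.555, SD, n = 4). That was near the median of the 392 day 6 pairs of chromosome 7, 4.18 CPM. Over that chromosome the day 6 list had 0.0551 anchors a bin. The authors' p was 0.0823 with an FDR that did not pass 0.1. Neither bin was an anchor in any other HiChIP list.

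Hi-C contacts of H19-Igf2 were similar in number in both cell types, 48 in MEFs and 54 in ES cells, 1.13 times as many, where chromosome 7 had 18140 and 22716 pairs, 1.25 times as many. At equal list length there were 48 in MEFs and 42 in ES cells. Both lists were dense at the locus, with 6.36 anchors a bin in MEFs and 7.45 in ES cells against 2.55 and 3.19 over the chromosome. The lists shared 27 members, 56.2% of the MEF and 50% of the ES members, close to the 55.9% and 40.0% of all pairs. The surrounding domain, chr7:142280001-142720000, was called with the same limits in both, and 0 members crossed its boundaries.

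H19 itself had 8 Hi-C pairs in MEFs and 9 in ES cells. The bin just upstream of its start, 142580001-142590000, had 13 and 9. The 2 bins of Igf2 had 5 and 8 pairs, and the bin of the insulin gene Ins2, next to Igf2, 10 and 15. The bin 142610001 inside Gm33148 stood out by its lack of pairs, with 0 in MEFs and 1 in ES cells.

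The most distant partners lay at the far side of the domain, between Krtap5-4, a keratin-associated protein gene, and Ifitm10, of the interferon-induced transmembrane family (chr7:142300001-142340000). MEFs listed 10 pairs between there and the locus, 240 to 360 kb apart, and ES cells 4, over the same distances. All of these passed the authors' FDR of 0.1, which 15 of the 48 MEF members and 7 of the 54 ES members did, beside 13.1% and 8.43% of all listed Hi-C pairs of chromosome 7. The lowest FDR was 1.34e-19 in MEFs and 6.02e-06 in ES cells, both for 142330001 to 142580001, the Ifitm10 bin with the bin upstream of H19.

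That pair had a signal of 26 and 40.6 in MEFs and 26.7 and 20.8 in ES cells, so the groups overlapped. Its log2 change was -0.55 ± 0.29 (SE), with an edgeR adjusted p of 0.859, and it was -0.84 and -0.17 without the first and the second MEF library and -0.34 without the second ES library. The Ifitm10 bin also contacted the H19 bin (20.2 and 28.0 in MEFs, 19.4 and 16.7 in ES cells) and the Ins2 bin, 340 kb away (26 and 26.6 in MEFs, 19.4 and 19.8 in ES cells). The longest member, 142310001 to 142670001, spanned 360 kb from the Krtap5-4 side to Ins2, with 21.7 and 29.4 in MEFs and 15.8 and 18.7 in ES cells. These 3 pairs had log2 changes of -0.47, -0.47 and -0.60 and edgeR adjusted p of 0.95, 0.946 and 0.882, so none was called. Without the second MEF library the changes to the H19 bin and of the longest member were -0.20 and -0.35.

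Igf2 reached that side once, in MEFs, with 142320001 to 142660001 at 15.9 and 16.8, close to the limit of 15. Between the genes of the locus, the bin upstream of H19 was joined to the Ins2 bin in both lists (17.3 and 18.2 in MEFs, 34.0 and 21.9 in ES cells) and to the Igf2 start bin 142660001 in ES cells (17 and 18.7). The H19 bin had 0 listed pairs with the Igf2 or Ins2 bins in either list.

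Nearer partners differed between the lists. Toward Syt8 and Tnni2, a synaptotagmin and a fast-muscle troponin gene (142430001-142450000), both lists had 3 pairs. Toward Lsp1 and Tnnt3 (142450001-142530000), the latter a second troponin gene, MEFs had 0 pairs and ES cells 8, which joined this stretch to H19, to the bin upstream of it or to Ins2. Toward Mrpl23 and the noncoding RNA gene Nctc1, just downstream of H19, there were 9 and 6.

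**Figure D4:**
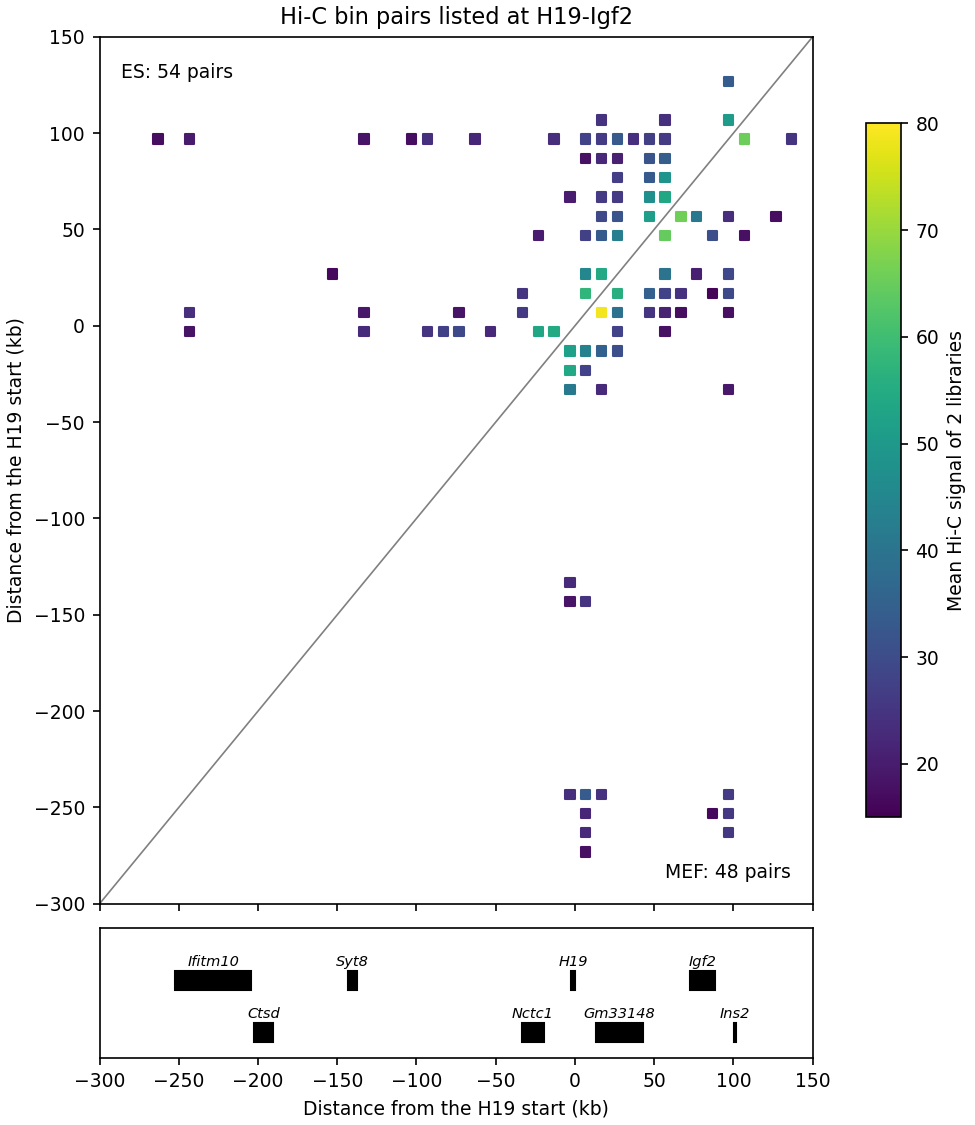
Listed Hi-C bin pairs at H19-Igf2, ES cells above the diagonal and MEFs below, both axes in kb from the H19 start, colour giving the mean signal of 2 libraries and black bars the genes. The squares farthest from the diagonal are the contacts with the Krtap5-4 to Ifitm10 side, 10 in MEFs and 4 in ES cells.

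The strongest H19-Igf2 member in MEFs was 142580001 to 142590001, the bin upstream of H19 with its neighbour, at 83.7 and 74.2, and it was also the strongest in ES cells, at 55.9 and 59.4. Next in MEFs were 142630001 to 142640001, between H19 and Igf2, at 52 and 79.8, and 142670001 to 142680001, from the Ins2 bin, at 62.1 and 68.6. Next in ES cells were 142560001 with the H19 bin, at 57.1 and 52.1, and 142590001 to 142600001 in Gm33148, at 46.2 and 62.5. For the strongest pair the libraries did not overlap, and of the 27 shared members it had the smallest p, 0.0282, with a log2 change of -0.50 ± 0.22 (SE) and an edgeR adjusted p of 0.755. In all, edgeR called 0 of the 27, with 1 at an unadjusted p under 0.05, and DESeq2 called 0, with 0 at that level. The log2 changes ran from -0.60 to 0.58, with 15 below 0 and 12 above, and their median was -0.07 (0.02 without the first MEF library).

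**Figure D5:**
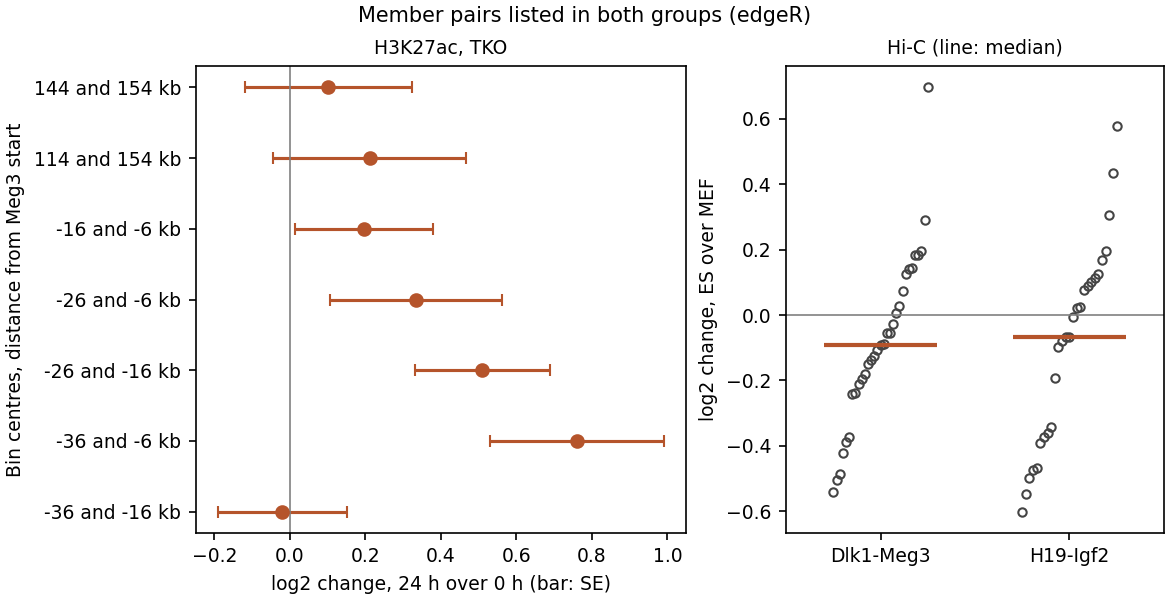
Left, log2 changes with SE of the 7 Dlk1-Meg3 pairs in both TKO H3K27ac lists, named by the distance of the bin centres from the Meg3 start. Right, log2 changes from MEFs to ES cells of the Hi-C pairs in both lists, 31 at Dlk1-Meg3 and 27 at H19-Igf2, each circle 1 pair and the line the median, which is -0.09 and -0.07.

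Among 59 imprinted genes, a list chosen with results of these data known, 58 were matched in RefSeq. In H3K27ac, 27 of the 58 (46.6%) had more listed pairs in ES cells than in MEFs and 8 (13.8%) fewer, beside 34.4% and 20.2% of 34324 genes, with a median log2 ratio (pseudocount 1) of 0 in both sets. In Hi-C 41 (70.7%) had more pairs in ES cells, beside 58.5% of all genes, with medians of 0.58 and 0.42. Between TKO 0 h and 24 h, 10 had more pairs and 18 fewer (17.2% and 31.0%), beside 15.5% and 27.7% of all genes. Meg3, with 1 and 25 Hi-C pairs in MEFs and ES cells, Rtl1, with 1 and 31, and Rian, with 1 and 53, were among the 41. Dio3, the thyroid hormone deiodinase gene of the same imprinted domain beyond the bins examined, had 11 and 24.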

How the data were processed

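HiChIP and Hi-C were made by the submitters in 25 libraries of 9 groups. Per the submitters' processing notes, the tools include Bowtie2 2.2.3 and the build is mm10, and the interaction caller is not given in the sources used here. The authors deposited, for each group, a list of 10 kb bin pairs with raw counts per library, CPM (scaled to 1 M contacts of the same chromosome, as the ratio of count to CPM shows), p-values and an FDR. In the deposited Hi-C lists the column named CPM was taken as a signal, because its scaling is not given. Of the deposited columns, 25 of distance-normalised values were not used. Domains were deposited as coordinates with a score, which was not used.

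Members and gene lists were chosen with earlier results of these data known. Counts of pairs in both lists of a comparison were tested with edgeR 4.0.16 (quasi-likelihood, TMM factors on contact totals, low-count filter, Benjamini-Hochberg over all tested pairs, threshold 0.05), in R 4.3.3, with each comparison's own libraries. Tests of pairs in both lists cover the pairs that passed both filters. Libraries of a group were joined where a chi-square test of their counts gave p of 0.05 or more while another pair of libraries differed. The test was tried on simulated data. Alternatives were DESeq2 1.42.0, contact totals, chromosome constants as offsets, no filter, separate libraries, the replicate number as a block, each library left out, stricter lists and overlap within 1 bin. Text names the 3 strongest and the longest pair of a list, pairs at the 4 genes' starts and called or smallest-p pairs. Other pairs, such as those of the Krtap5-4 to Ifitm10 side, were picked after their values were seen. Sequences are from RefSeq for GRCm38.p6. The set of start windows held none for H19, Rtl1 or Ins2. HiChIP members had 7 to 82 counts a library, which limits the precision, and in each HiChIP group but day 6 some libraries also differed beyond counting error.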

Additional observations from a re-analysis of the deposited data

How the results depend on the processing

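With contact totals or chromosome constants in place of TMM factors, 0 of the 7 TKO members was called, and leaving out 1 library gave 0 to 1 called, with 1 called without the third 24 h library alone. DESeq2 gave no adjusted p for the TKO members (1 of 7 at an unadjusted p under 0.05). The pair of bins 1 and 3 had log2 changes of -0.044 to 0.014 when 1 library was left out, above 0 without replicate 2 of either time. Counts of all called pairs ran from 269 (DESeq2) to 3210 (chromosome constants) against 1894 for TKO, from 72 (DESeq2) to 710 (libraries separate) against 532 for KLF4 day 3 to ES, and from 0 (DESeq2) to 113 (without ES replicate 2) against 40 for Hi-C; the cause was not tested. With the replicate number as a block, 1 TKO, 0 KLF4 and 0 Hi-C members were called, as without it, and all called pairs numbered 2024, 298 and 74. Deviations from the group mean correlated by -0.052 to 0.043 between same-numbered libraries. In most groups these deviations were little more than counting noise, so the check cannot tell whether the numbers pair libraries.

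Without neighbouring bins, Dlk1-Meg3 had 5 pairs in TKO cells at 0 h, 7 at 24 h, 1 on day 3 and 27 in MEF Hi-C, and H19-Igf2 had 0 on day 6. Under the authors' FDR of 0.1, 0 HiChIP members and 0 MEF Hi-C members of Dlk1-Meg3 remained, 3 in ES Hi-C (all of chromosome 12: 10.6% of MEF and 7.27% of ES Hi-C pairs, 0 to 9.68% in HiChIP lists), and 15 (MEF) and 7 (ES) at H19-Igf2. With both anchors inside, H19-Igf2 had 22 Hi-C pairs in MEFs and 28 in ES cells. At equal list length, chosen after seeing the data, ES Hi-C had 93 Dlk1-Meg3 pairs. Allowing 1 bin, 42 MEF Hi-C members of H19-Igf2 matched the ES list, 7 ES H3K27ac members the ES Hi-C list and 1 MEF H3K27ac member the MEF Hi-C list.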

Other observations

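Other imprinted genes of the same list differed in listed H3K27ac pairs in both directions. Igf2r, which encodes the receptor that clears the Igf2 product, had 33 pairs in MEFs, 0 in ES cells, 0 in TKO cells at 0 h and 4 at 24 h, and Airn, the antisense noncoding RNA that shares its bins, had 34, 0, 1 and 5. Grb10, an adaptor protein gene, had 7 pairs in MEFs, 22 in ES cells, 43 in TKO cells at 0 h and 41 at 24 h. Commd1 had 0, 27, 28 and 14 pairs, and Kcnq1, a potassium channel gene further along chromosome 7 from Igf2, 3, 16, 14 and 23. These are counts of list entries, 1 list a group, with no test.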
